A study of Mus musculus with 9 samples.

Results

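To examine whether peroxisome proliferator-activated receptor gamma (PPARγ) binding in interscapular brown adipose tissue (iBAT) follows a 12-h pattern, binding at the light transitions was compared with binding in the middle of the light and dark phases. The light transitions are zeitgeber time (ZT) 0, when the lights went on, and ZT12, when they went off. The mid-phases are ZT6 and ZT18. Of the 9 libraries in the series, 4 belong to this comparison, chosen by their labelled times, and all 66066 peaks of the count table enter it. The libraries of each side are 12 h apart, so that a 24-h cosine cancels in the difference and a 12-h cosine remains. All groups were iBAT of male C57BL/6J mice, an inbred strain, 10 weeks of age, on chow at 22 °C under 12 h of light and 12 h of darkness and without fasting. Tissue of 8 mice was combined per time point according to the labels, whereas the animal section of the study's methods gives 4 mice, and 1 library was made from each pool with 8 μg of PPARγ antibody. Each side therefore has 2 pools, which differ in phase as well as in mice, and P values measure only variation between pools. The main model was fitted to all 8 libraries with 24-h and 12-h terms. As spread it uses what these terms leave over, so that rhythms of 8 h or less count as error. In a second fit to the 4 libraries alone, the spread is that between the 2 pools of a side, with any 24-h rhythm in it. The 4 libraries taken between these times (ZT3, ZT9, ZT15 and ZT21) were used to estimate the spread of the main model, and an input library was not analysed here.

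PPARγ is the nuclear receptor that directs the formation of fat cells and the storage of lipids in them. Paired with the retinoid X receptor (RXR), it recognises preferably direct repeats of AGGTCA spaced by 1 base (DR1). In brown fat it occupies enhancers of thermogenic and lipid genes together with C/EBP and EBF factors. Rhythms shorter than a day are best known in liver, where genes of the unfolded protein response, which handles misfolded protein in the endoplasmic reticulum, cycle with a 12-h period under control of the factor XBP1. The circadian clock itself runs with a period of about 24 h, and its transcription factors, among them REV-ERBα (Nr1d1), ROR and NPAS2, act in fat cells as well.

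Sequences are given for 5 sites to which the results below refer, read from mm10 (GRCm38) on the plus strand. The first 2 are the peaks with the smallest and the third smallest P value, downstream of Cish, with a palindrome TTCNNNGAA of the kind bound by STAT factors in capitals (chr9:107303659-107303779 and chr9:107306418-107306501). The intron of Bcl2 holds the peak with the second smallest P value, and in Rora lies a clock gene peak, both with the bases that match a DR1 element in capitals (chr1:106629624-106629744 and chr9:69195575-69195695). The last is the promoter of Cmtm8 as an example of GC-rich sites (chr9:114844194-114844259), with its GC box (GGGCGG) in capitals.
Cish, first peak: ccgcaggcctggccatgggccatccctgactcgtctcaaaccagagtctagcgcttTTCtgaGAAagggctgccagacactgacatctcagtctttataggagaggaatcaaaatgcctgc
Cish, second peak: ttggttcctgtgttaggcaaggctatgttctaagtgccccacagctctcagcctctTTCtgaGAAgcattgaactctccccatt
Bcl2 intron: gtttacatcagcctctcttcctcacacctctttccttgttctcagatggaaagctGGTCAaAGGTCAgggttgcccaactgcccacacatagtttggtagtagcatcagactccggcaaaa
Rora intron: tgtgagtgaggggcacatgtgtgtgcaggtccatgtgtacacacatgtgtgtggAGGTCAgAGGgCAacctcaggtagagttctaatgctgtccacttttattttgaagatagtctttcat
Cmtm8 promoter: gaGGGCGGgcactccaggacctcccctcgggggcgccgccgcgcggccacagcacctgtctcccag

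Reads were counted per peak by the authors, and between 29572225 and 34264812 reads per library lay in peaks. Values below are normalised read counts, which are counts scaled by library totals with TMM factors of 0.959 at ZT6 to 1.04 at ZT18. The strongest 10% of peaks took 45.7% of the reads at ZT0, 46.7% at ZT12, 48.1% at ZT6 and 44.3% at ZT18, so the mid-phase libraries lay on either side of the transition libraries in this respect. At Ucp1, the uncoupling protein that defines brown fat, the strongest peak reached 9254 at ZT0, 9879 at ZT12, 12540 at ZT6 and 7460 at ZT18.

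No peak was called as different between light transitions and mid-phases. In the model with 24-h and 12-h terms fitted to all 8 libraries by edgeR's quasi-likelihood method (3 residual degrees of freedom), 0 of 66066 peaks (0%) had a Benjamini-Hochberg adjusted P value under 0.05. Without adjustment, 918 peaks (1.39%) had a P value under 0.05, of which 451 (0.683%) were higher and 467 (0.707%) lower at the transitions. limma-voom called 0 peaks, with 901 under 0.05 before adjustment, and DESeq2 called 0, with 294 before adjustment. In the fit to the 4 libraries alone, edgeR again called 0 peaks, as did limma-voom and DESeq2 (112 and 46 before adjustment), and 132 (0.2%) had an unadjusted P value under 0.05, 80 of them higher and 52 lower. An exact two-sided permutation test of 2 libraries against 2 could not fall below P = 0.333. Leaving out ZT6 was the single removal from the 8 libraries that gave calls, 15 peaks higher at the transitions, and in the 4-library fit the removal of ZT0 gave 8, all higher. By contrast, the 24-h terms of the 8-library model were called for 5474 peaks (8.29%).

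The differences were small, and their intervals were narrower at strong peaks than over all peaks. The fitted log2 ratio of light transitions over mid-phases had a median of 0.0014 over all peaks, and 90% of peaks lay between the 5th and 95th percentile at -0.28 and 0.27. A ratio beyond 0.5 in either direction was found in 697 peaks (1.06%) and one beyond 1 in 3 peaks. The 95% interval of the log2 ratio stayed within 0.5 of zero for 47.7% of all peaks and for 91.9% of the 17498 peaks with a mean count over 500, and within 1 for 97.9% and 99.9%. It stayed within 0.25 for only 2.12% and 7.99%, so differences of that size were seldom excluded at a single peak. At the median peak the fitted 24-h cosine had a peak-to-trough log2 difference of 0.348, compared with a median absolute transition difference of 0.0976. The amplitude combines 2 fitted terms and is never negative, so the 2 medians are given side by side and not as a test.

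The variation between the 8 libraries was then divided into orthogonal components over all peaks. The 12-h cosine, which is the present comparison, carried 6.5% of the sum of squares, the lowest of the 7 components. Its mean square was 0.0289 in squared log2 units, whereas counting error alone would give 0.0134. The 24-h sine held 30.6% and the 24-h cosine 22.5%. The component that alternates every 3 h, and so sets the transition and mid-phase libraries together against the other 4, held 12.4%. The 8-h terms held 10.6% and 8.24% and the 12-h sine 9.14%. The 8-h terms and the alternating component are what the 8-library model leaves as its spread, and each was larger than the 12-h cosine. The 24-h terms led in strong peaks as well, with mean squares of 0.0877 and 0.0532 compared with 0.0117 for the 12-h cosine and 0.00233 for counting error.

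**Figure D1:**
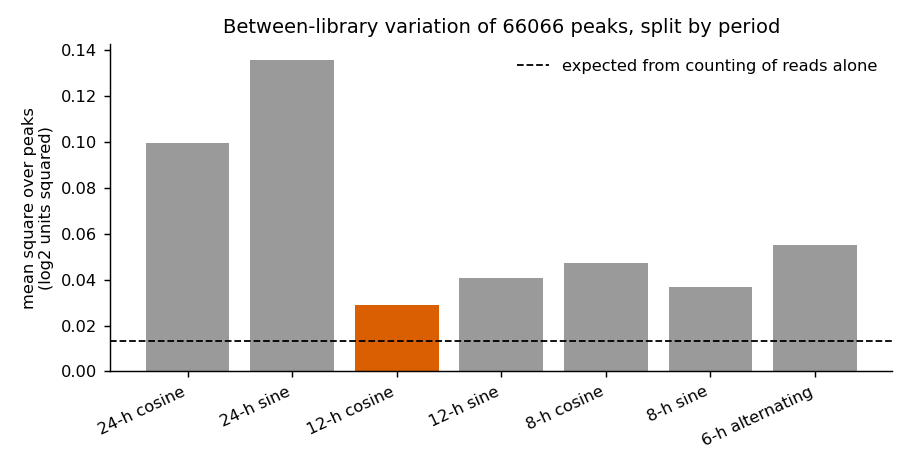
Mean square over 66066 peaks (log2 units squared, vertical axis) of each orthogonal component of the 8 libraries, with the 12-h cosine (light transitions against mid-phases) in orange. The 12-h cosine, at 0.0289, is the lowest bar and lies above the dashed line of counting error at 0.0134.

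If binding followed only a 12-h rhythm with a maximum or minimum at the transitions, ZT0 would differ from ZT6 in the direction in which ZT12 differs from ZT18. A 24-h wave adds opposite signs to these differences by its shape. Signs and correlations therefore cannot tell whether a 12-h part is present beside it. These 2 differences had the same sign in 21263 peaks (32.2%). Across peaks, the log2 ratio of ZT0 over ZT6 and that of ZT12 over ZT18 had a Pearson correlation of -0.524 and a Spearman correlation of -0.503. With the pairs crossed, ZT0 over ZT18 and ZT12 over ZT6, the Pearson correlation was -0.458 and Spearman's -0.442. The ratios of a pair share no library, but peaks of 1 library share its preparation and are no replicates, so the correlations are given as a description.

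Clock and lipid genes with strong 24-h variation showed how the sides cancel. The values of the Nr1d1 peak 7955 bases upstream of its start site (chr11:98782172-98784492) were 1608 at ZT0 and 1960 at ZT12, compared with 3596 at ZT6 and 1157 at ZT18. One mid-phase library was thus the highest and the other the lowest of the 4, and the log2 difference was -0.20 (SE 0.10). At Dbp, a D-box factor under direct control of the clock (chr7:45703881-45708861), the values were 2909 and 4509 at the transitions and 5515 and 2900 at the mid-phases. The distal peak of Lpl, which encodes the lipase that frees fatty acids from circulating triglycerides (chr8:68852313-68853314), had 267 and 373 compared with 945 and 164. At Pnpla2, the adipose triglyceride lipase (chr7:141450753-141462885), the transitions had 12610 and 14430 and the mid-phases 16590 and 10960, and the log2 difference was 0.0006 (SE 0.092). In each of these peaks ZT6 was the highest and ZT18 the lowest of the 4, and edgeR called all of them for the 24-h terms. They are the peaks with the smallest 24-h P value of their genes and were chosen after their values were seen.

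Although no peak was called, the 2 sides did not overlap in a share of the peaks. Both transition libraries lay above both mid-phase libraries in 5156 peaks (7.8%) and below them in 5489 (8.31%). Libraries in random order would separate in either direction with a probability of 0.333, the limit of the permutation test above. The 2 shares together lay below this, so separation by itself shows no 12-h pattern. Most of these gaps were narrow, with a median log2 gap between the nearest libraries of 0.059 and 0.0685. Of the 5156 higher peaks 28 were called for the 24-h terms, and of the 5489 lower peaks 13, against 8.29% of all peaks. A 24-h wave sets the 2 libraries of a side apart and so works against separation. These low counts therefore follow largely from the choice of the peaks. A gap of more than 0.25 at a mean count of at least 100 was found in 129 and 133 peaks. The mean of the 4 libraries at the other times lay between the means of the sides in 51.4% of the higher and 58.0% of the lower peaks.

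The 10 peaks with the widest gap in each direction, among those with a mean count of at least 100, are described next, and none was called. Because they were chosen by this gap, the separation of their sides, also beyond counting error, follows largely from the choice. An intron of Tead1, a transcription factor of the Hippo pathway, held the peak with the largest fitted difference of the higher group (chr7:112703665-112704118). Its values were 149 at ZT0 and 168 at ZT12, compared with 100 at ZT6 and 85.3 at ZT18, and the log2 difference was 0.80 (SE 0.25, unadjusted P = 0.00759 by edgeR). In intron 20 of Ano1, a chloride channel gene (nearest start site Fadd, chr7:144604333-144605078), the values were 236 and 319 compared with 161 and 166. There ZT9 and ZT15 had 273 and 351, and ZT15 was the highest of all 8 libraries. A peak in intron 2 of Mfsd14b (chr13:65107519-65108064) had 184 and 170 compared with 111 and 119. In all of these the transition libraries were higher than the mid-phase libraries by a margin above counting error, which the choice by gap favours. The other 7 were nearest to Asb13, Dio3os, 4930470O06Rik, Gm14015, Sec22a, Adamts15 and Ccdc34os, with log2 differences of 0.53 to 0.73. Counting intervals of the sides were apart in 8 of the 10.

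Among the lower peaks with a mean count of at least 100, the widest gap belonged to a site 115129 bases upstream of Macroh2a3, a histone variant gene (chr15:62334132-62335029). It had 127 at ZT0 and 113 at ZT12, compared with 201 at ZT6 and 220 at ZT18, a log2 difference of -0.81 (SE 0.23, unadjusted P = 0.00369 by edgeR). An intron of Nsf, which encodes a fusion ATPase of vesicle traffic (chr11:103867542-103868278), had 69.8 and 72.9 compared with 137 and 113. Intron 2 of Irak2, a kinase of interleukin-1 signalling (chr6:113659082-113659990), had 88.3 and 97.5 compared with 152 and 135. The peak upstream of Pik3r3, a regulatory subunit of phosphoinositide 3-kinase (chr4:116199018-116199680), had 121 and 109 compared with 167 and 173. The 10 lower sites had values of 69.8 to 220 in these 4 libraries, and the counting intervals of the sides were apart in 4 of the 10. The other 6, at 5430440P10Rik, Lncpint, Rbm46, Dock8, Wdfy3 and Ntrk2, had log2 differences of -0.70 to -0.48.

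Stronger sites appeared when peaks were ordered by P value, an order that was looked at after the values were seen. The smallest unadjusted P value was 0.000605, at the peak 7068 bases downstream of the start of Cish (chr9:107302913-107304541). Cish encodes a suppressor of cytokine signalling that STAT5 induces. Its values were 687 at ZT0 and 996 at ZT12, compared with 574 at ZT6 and 458 at ZT18, with a log2 difference of 0.70 (SE 0.15) in the 8 libraries. ZT12 was the highest and ZT18 the lowest of all 8 libraries, and the libraries at the other times lay between 555 and 629. In the second place was a peak in the first intron of Bcl2, the apoptosis inhibitor (chr1:106629328-106630580). It had 693 and 615 at the transitions and 928 and 933 at the mid-phases, and both mid-phase libraries were the higher ones. The log2 difference was -0.51 (SE 0.12, unadjusted P = 0.00101 by edgeR). At the start site of Fhl3, a LIM domain protein of muscle (chr4:124698989-124702308), the values were 1130 and 1132 compared with 1863 and 1234, with ZT6 high and ZT18 near the transitions. A peak upstream of Plau, the urokinase gene (chr14:20818407-20819223), had 527 and 303 compared with 512 and 633, so that the sides overlapped there.

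**Figure D2:**
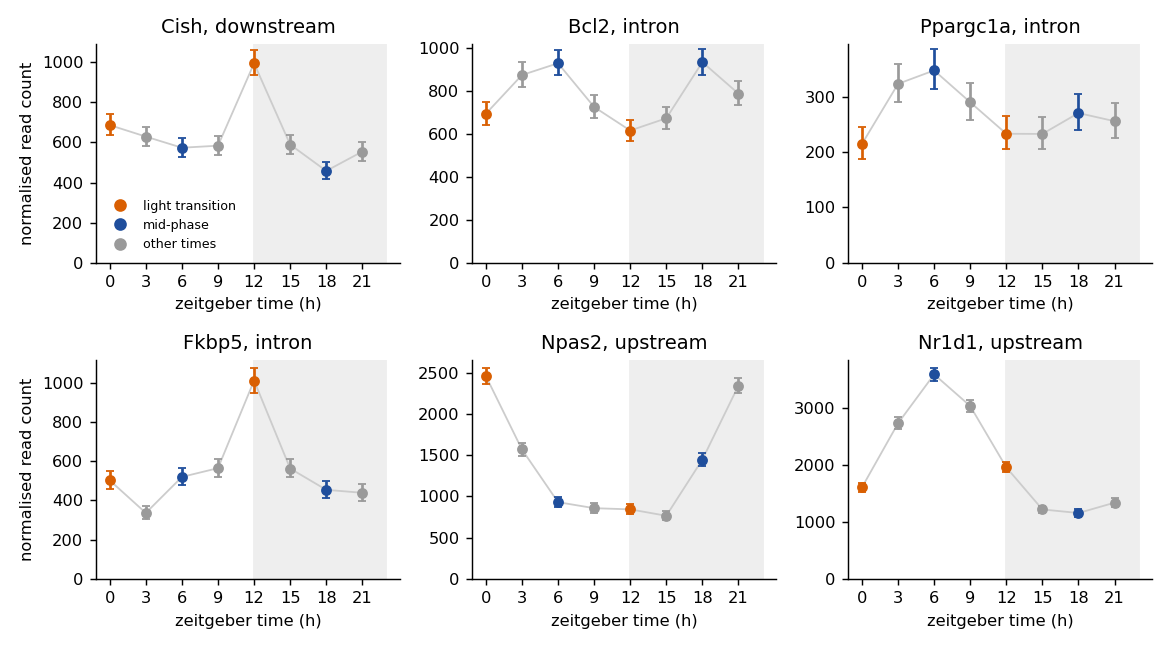
Normalised read count (vertical axis, from 0) by zeitgeber time in hours for 6 peaks, with 1 library per point and bars for 95% counting intervals. Orange points are light transitions, blue points mid-phases and grey points other times, with the dark phase shaded. Orange lies above blue at Cish and below it at Bcl2 and Ppargc1a, the Fkbp5 peak stands out at ZT12, and Npas2 and Nr1d1 vary once a day with the colours mixed.

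The Cish peak had neighbours of the same direction. Of the 13 peaks whose nearest start site is that of Cish or Hemk1, spread over 44.7 kb, all had a log2 difference above 0, from 0.04 to 0.73 with a median of 0.33. Both transition libraries lay above both mid-phase libraries in 9 of the 13, against 7.8% of all peaks, and 8 had an unadjusted P value under 0.05. ZT12 was the highest of the 8 libraries in 10 and ZT18 the lowest in 7, and 1 was called for the 24-h terms. The peak over the first intron of Cish (chr9:107295541-107300745) had 3351 at ZT0 and 3932 at ZT12, compared with 3159 at ZT6 and 2753 at ZT18. In intron 4 of Hemk1, a methyltransferase gene (chr9:107330530-107332766), the values were 1708 and 1596 compared with 1298 and 1168. Sites so close to each other share chromatin and libraries and are not independent, and the region was chosen because of its P values. Leaving out 1 library reversed the sign at 2 of the 13 peaks, those at chr9:107294231-107294796 and chr9:107310748-107311564.

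**Figure D3:**
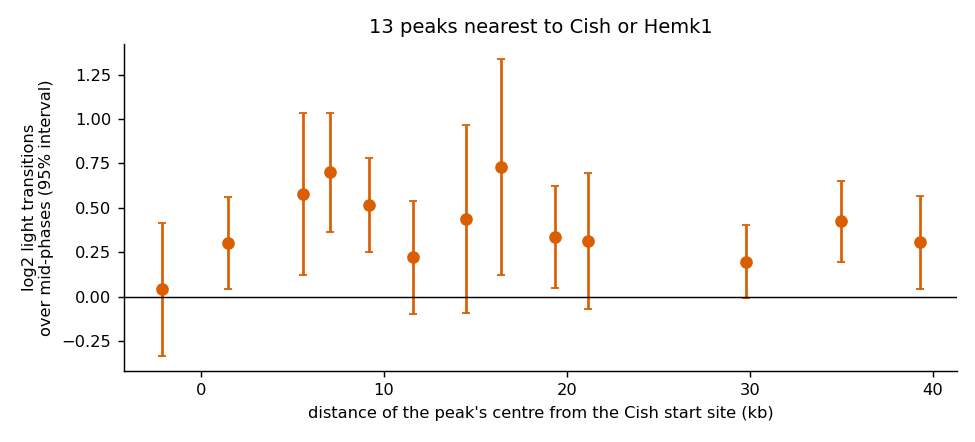
Log2 ratio of light transitions over mid-phases with its 95% interval (vertical axis) against the distance of each peak's centre from the start site of Cish in kb, for the 13 peaks nearest to Cish or Hemk1. All points lie above 0, between 0.04 and 0.73, and the values above 0.5 lie 5584 to 16374 bases downstream of the start.

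Each of the first 2 Cish peaks shown above held 1 exact match to TTCNNNGAA, and in both cases the letters were TTCtgaGAA. Of all peaks within 5% of their width, 41.1% (2040 peaks of 1629 bases or so) and 35.9% (2456 peaks) held at least 1 match, so such a match is common. Neither peak held a DR1 element with at most 2 mismatches. The Bcl2 peak held 1 with 1 mismatch (chr1:106629678-106629690), as did 25.2% of peaks of its width with up to 2 mismatches.

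Sites with high GC content were more often higher at the transitions. The median GC content was 47.3% over all peaks, 50.4% in peaks with both transition libraries above both mid-phase libraries and 45.6% in those with both below. In the top 10% by GC content (median 61.5%), 17.8% were higher and 4.21% lower, compared with 7.8% and 8.31% of all peaks. The median log2 difference there was 0.0533, and when peaks were split into 10 groups by GC content the lowest median, -0.0298, was found at a GC content of 42.9%. Peaks within 1 kb of a start site made up 27.3% of the higher, 11.7% of the lower and 15.7% of all peaks. Among peaks within 1 kb of a start site but outside the top 10% by GC content, 7.96% were higher and 8.28% lower, whereas GC-rich peaks had 19.2% higher and 4.06% lower within 1 kb of a start site and 12.9% and 4.73% farther away. Centring the median change within bins of GC content, which by its construction evens out such a trend, left 8.93% higher and 8.67% lower in the top 10% by GC content. Over the whole table, 4887 peaks were then separated higher and 5272 lower. The median log2 deviation of the GC-rich peaks from the mean of the 8 libraries was 0.0201 at ZT0 and 0.0236 at ZT12, compared with -0.0411 at ZT6 and -0.0115 at ZT18. At the Cmtm8 promoter, 270 bases upstream of its start site (chr9:114844194-114844650, GC content 63.9%), the values were 141 and 150 compared with 117 and 116, with a log2 difference of 0.32 (SE 0.19).

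**Figure D4:**
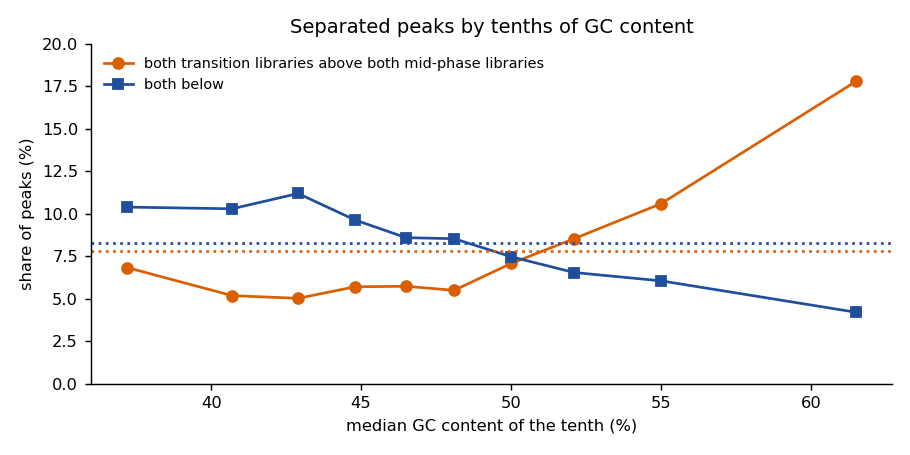
Share of peaks (%, vertical axis) with both transition libraries above (orange) or below (blue) both mid-phase libraries, in 10 groups by GC content plotted at their median GC. Dotted lines give the shares over all peaks, 7.8% and 8.31%. The orange share reaches 17.8% in the GC-rich group, where the blue share is 4.21%.

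Other sequence features were compared over whole peaks, on both strands. GC boxes (GGGCGG) were found in 37.6% of the higher, 18.5% of the lower and 26.9% of all peaks, and ETS sites (CCGGAAGT) in 4.0%, 2.31% and 2.91%. DR1 elements (AGGTCANAGGTCA) with at most 2 mismatches were found in 19.4%, 25.2% and 23.6%. E-boxes (CACGTG), the site of the CLOCK and BMAL1 dimer, were in 15.9%, 15.0% and 16.9%, and D-boxes (TTATGNAA) in 16.4%, 15.5% and 19.3%. The XBP1 core (GCCACGT), which holds an E-box where a G follows, was in 6.71%, 4.9% and 6.48%, and the cyclic AMP response element (TGACGTCA) in 2.0%, 1.69% and 1.65%. The heat shock pair GAANNTTC was present in 22.7%, 23.3% and 26.2%, and the glucocorticoid receptor palindrome (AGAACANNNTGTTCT) with at most 2 mismatches in 7.85%, 7.23% and 9.55%. The ROR element AANTAGGTCA (1.05%, 1.6% and 1.64%), the C/EBP palindrome TTGCGCAA (0.369%, 0.437% and 0.459%) and the NF1 palindrome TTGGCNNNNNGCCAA (0.252%, 0.237% and 0.239%) were rare. Longer peaks hold more matches of any motif, and the median width was 782 bases in the higher, 717 in the lower and 813 in all peaks. Their median GC content differed as well, at 50.4%, 45.6% and 47.3%. The motif shares were not adjusted for it and are not separate from the GC trend above.

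Genes of the unfolded protein response, whose 12-h rhythm is known from liver, had shares near those of all peaks. The list of 30 genes had 81 peaks at 29 of them, of which 0 were called by edgeR, 6 (7.41%) had both transition libraries above and 5 (6.17%) below both mid-phase libraries, and 1 had an unadjusted P value under 0.05. Their median log2 difference was -0.03. The peak with the low P value was in an intron of Sec24d, a component of the vesicle coat that leaves the endoplasmic reticulum (chr3:123324115-123324785), with 186 and 164 compared with 286 and 208. Edem1, which hands misfolded glycoproteins to degradation, had 16 peaks, of which 3 were separated with the transitions higher. One of them, in intron 6 (chr6:108847248-108847651), had 67.8 and 63.7 compared with 45.6 and 50.0. For Xbp1 itself 1 of 3 peaks was separated, with the transitions higher, and the single peak of the chaperone Hspa5 was not.

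The largest imbalance among the 13 metabolic and regulatory lists was found for targets of the glucocorticoid receptor, a hormone receptor whose ligand corticosterone surges in mice around the start of the dark phase. Of 112 peaks at 15 genes, 14 (12.5%) were separated with the transitions higher and 1 (0.893%) with them lower, against 7.8% and 8.31% of all peaks, and the median log2 difference was 0.11 compared with 0.0014 over all peaks. Although 0 were called by edgeR, 7 had an unadjusted P value under 0.05, all higher (0.683% of all peaks), which is 3 peaks of Ddit4, 2 of Fkbp5 and 2 of Tsc22d3. At Ddit4, an inhibitor of mTOR signalling, the log2 difference was above 0 in 10 of 10 peaks, at Fkbp5 in 5 of 5, at Sgk1 in 6 of 6 and at Tsc22d3 in 23 of 24. Other members did not share this direction, with 2 of 8 peaks above 0 at Pdk4, 0 of 1 at Mt2, 4 of 8 at Klf9, 5 of 10 at Dusp1 and 6 of 12 at Nfkbia. With start sites limited to 10 kb, 6 (17.6%) of 34 peaks were separated higher and 0 lower. The sites of a gene share its neighbourhood. A strong site 35897 bases downstream of the start of Ddit4 (chr10:59914644-59917102) had 3207 at ZT0 and 3538 at ZT12, compared with 3143 at ZT6 and 2169 at ZT18. It was low at ZT18 and differed little among the other 3. The peak in intron 4 of Fkbp5, a co-chaperone of the receptor (chr17:28428334-28429364), had 502 and 1011 compared with 520 and 454. The ZT12 library alone stood out there, with ZT0 between the mid-phase libraries, and the log2 difference was 0.56 (SE 0.19, unadjusted P = 0.0114 by edgeR). Neither peak held the receptor's palindrome with at most 2 mismatches, which was present in 20.3% and 9.56% of peaks of like width. In this list 32 of the 112 peaks were called for the 24-h terms, against 8.29% of all peaks.

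Thermogenic genes had more peaks separated with the transitions lower than higher. Of 200 peaks at 19 genes, 0 were called by edgeR, 10 (5.0%) were separated with the transitions higher and 21 (10.5%) with them lower, against 7.8% and 8.31% of all peaks. All 6 peaks with an unadjusted P value under 0.05 were lower (0.707% of all peaks). With start sites limited to 10 kb, 0 of 44 peaks were separated higher and 7 (15.9%) lower. The median log2 difference was -0.03. Ppargc1a, the coactivator that drives mitochondrial biogenesis, had 54 of these peaks, with 5 separated higher, 9 separated lower and 3 of the 6 low P values. Its intron 1 (chr5:51562421-51563784) had 215 at ZT0 and 233 at ZT12, compared with 348 at ZT6 and 271 at ZT18. Here both transition libraries were the lower ones, with a log2 difference of -0.45 (SE 0.16). At the promoter of the same gene (chr5:51567318-51569187), the values were 409 and 594 compared with 1093 and 446. A site upstream of Kcnk3, a potassium channel of brown fat (chr5:30571467-30575447), had 1088 and 1188 compared with 2018 and 1036. At both of these sites ZT6 was the highest of the 4 and the sides overlapped, and both were called for the 24-h terms. A distal site of Dio2, the deiodinase that activates thyroid hormone (chr12:90629157-90629919), had 146 and 152 compared with 252 and 164. At Ucp1, 0 of 8 peaks were separated, and the log2 difference of the strongest was -0.02 (SE 0.11).

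Clock genes had few separated peaks. Of 138 peaks at 20 genes, 0 were called by edgeR, 5 (3.62%) were separated with the transitions higher and 4 (2.9%) with them lower, against 7.8% and 8.31% of all peaks, and 55 were called for the 24-h terms, against 8.29% of all peaks. Within 10 kb of a start site, 1 (1.92%) of 52 peaks was separated higher and 3 (5.77%) lower, and such small counts give no direction. The 2 peaks with an unadjusted P value under 0.05 belonged to Npas2 and Rora and were higher. At Npas2, a partner of BMAL1, the peak upstream of the start site (chr1:39192309-39194709) had 2461 at ZT0 and 843 at ZT12, compared with 930 at ZT6 and 1447 at ZT18. ZT0 was thus the highest and ZT12 the lowest of the 4. The Rora peak with the DR1 element shown above, in intron 1 (chr9:69194410-69195757), had 446 and 951 compared with 497 and 563. There the order of the transitions was reversed, with ZT12 high and ZT0 low, and both peaks were called for the 24-h terms.

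Lists of lipid metabolism had 3.75% to 8.55% of their peaks separated higher and 2.63% to 9.09% lower, against 7.8% and 8.31% of all peaks. For extracellular lipolysis and fatty acid uptake, 7 (6.14%) of 114 peaks were separated with the transitions higher and 3 (2.63%) with them lower, and 0 had an unadjusted P value under 0.05. Angptl8, an inhibitor of lipoprotein lipase in the fed state, had the smallest P value of this list in intron 26 of the overlapping Dock6 (chr9:21822619-21823274), with 237 and 178 compared with 139 and 155. Lipid droplet and intracellular lipolysis genes had 4 (4.55%) higher and 8 (9.09%) lower of 88, triglyceride and glycerol synthesis 10 (8.55%) and 9 (7.69%) of 117, and fatty acid oxidation 3 (3.75%) and 4 (5.0%) of 80. De novo lipogenesis had 9 (6.98%) in each direction of 129 peaks. An unadjusted P value under 0.05 was found in 4 peaks of the droplet list, 4 of the synthesis list, 0 of the oxidation list and 3 of the lipogenesis list, the last all higher. A distal peak of Scd1, the stearoyl-CoA desaturase (chr19:44421223-44423583), had 3708 and 4466 compared with 3343 and 3262. At Acly, which makes cytosolic acetyl-CoA (chr11:100523265-100529513), the values were 3533 and 3910 compared with 3284 and 3025. Both had the mid-phases lower, with log2 differences of 0.30 (SE 0.12) and 0.24 (SE 0.088). edgeR called 0 peaks in any of these lists. Several shares moved when start sites were limited to 10 kb, to 12.0% higher and 6.0% lower for lipogenesis, 0% and 5.13% for lipid droplet genes, 4.08% and 0% for extracellular lipolysis, 4.65% and 2.33% for oxidation and 6.0% and 10.0% for triglyceride synthesis.

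In the list of PPAR and RXR genes, their coregulators and other adipogenic factors, 16 (10.3%) of 156 peaks were separated with the transitions higher and 6 (3.85%) with them lower, with 0 called by edgeR and 3 at an unadjusted P value under 0.05. Introns of the coactivator genes Ncoa1 (chr12:4392086-4392613) and Ncoa2 (chr1:13329538-13329947) held weak sites with low P values. At Ncoa1 the values were 39.0 and 50.3 compared with 65.1 and 72.8, and at Ncoa2 74.9 and 82.1 compared with 39.8 and 71.8. The transitions were thus the lower side at the first gene and the higher side at the other. In Pparg, 1 of 33 peaks was separated in each direction. Glucose uptake and insulin signalling genes had 14 (6.03%) higher and 19 (8.19%) lower of 232, adipokines 5 (8.62%) and 2 (3.45%) of 58 and the mitochondrial respiratory chain 6 (7.14%) and 8 (9.52%) of 84, with 0 called by edgeR and 2, 1 and 1 under 0.05 before adjustment. Within 10 kb of a start site the shares were 8.47% and 3.39% for the glucose list, from 5 and 2 peaks. For the respiratory chain they were 7.32% and 14.6%, from 3 and 6 peaks. Bmp8b, a secreted factor of brown fat (chr4:123105965-123107900), had 1037 and 770 compared with 1039 and 1115, so that ZT0 and ZT6 were nearly equal.

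**Figure D5:**
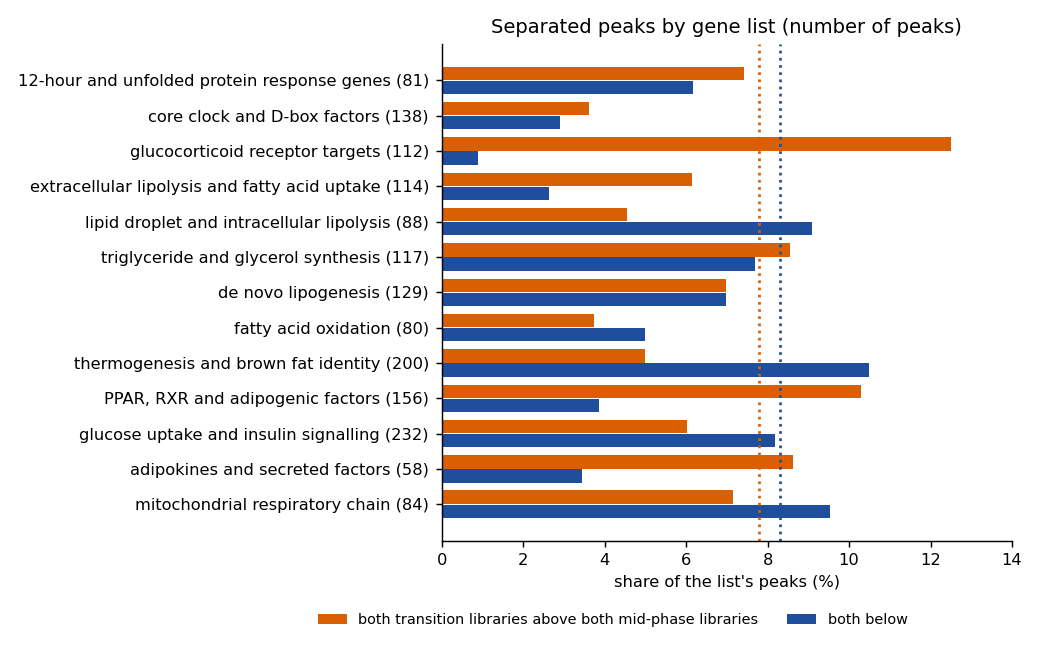
Share of each gene list's peaks (%, horizontal axis) with both transition libraries above (orange) or below (blue) both mid-phase libraries, with the number of peaks in parentheses and dotted lines for the shares of all peaks. Targets of the glucocorticoid receptor reach 12.5% above and 0.893% below, and thermogenesis genes 5.0% above and 10.5% below.

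Marker lists of other cell types differed in their number of sites. Leukocyte markers had 3 peaks at 3 of 10 genes, skeletal muscle 17 peaks at 4, fibroblasts and preadipocytes 20 at 8, white adipocytes 35 at 5 and endothelial cells 67 at 10, whereas the brown adipocyte list had 64 at 9. None had an unadjusted P value under 0.05 in the first 5 of these lists, and 1 did in the last, at Dio2. The separated peaks among them numbered 0 for leukocytes and muscle, 2 for fibroblasts, 3 for endothelial cells, 6 for white adipocytes and 9 for brown adipocytes. As shares these were 5.0% in each direction for fibroblasts, 4.48% for endothelial cells, all lower, and 8.57% in each direction for white adipocytes. Over all peaks the shares were 7.8% higher and 8.31% lower. The brown adipocyte list had 3 (4.69%) higher and 6 (9.38%) lower, and 0 and 4 (18.2%) of 22 within 10 kb of a start site. Such small counts give no difference between cell types. Binding by cell type could not be told apart in whole tissue, where fewer cells of a type and less binding per cell give the same count.

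The other phase of a 12-h rhythm was examined in the libraries that the comparison did not use. The 12-h sine sets ZT3 and ZT15 against ZT9 and ZT21, and edgeR called 0 of 66066 peaks for it, with 2348 (3.55%) under 0.05 before adjustment. Early libraries lay above the late ones in 7286 peaks (11.0%) and below them in 7405 (11.2%), which is more than the 7.8% and 8.31% that separated at the transitions. No test compared these counts.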

How the data were processed

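PPARγ ChIP-sequencing of 8 iBAT pools was used, with 1 library per time point grouped by label. Per the submitters' processing notes and the study's methods, the authors mapped reads to mm10 with BWA 0.7.17, called peaks with MACS2 2.1.2, kept those found in at least 6 libraries and counted reads with HTSeq 1.99.2. The deposited values are these whole counts, without normalization. The handling of duplicate reads is not given in the sources used here.

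Counts were analysed in R 4.3.3 with edgeR 4.0.16 (TMM, quasi-likelihood F test of the 12-h cosine beside 24-h terms and a 12-h sine, Benjamini-Hochberg over all peaks, common dispersion 0.0136), and the 4 libraries alone as 2 groups (dispersion 0.0316). No peak was filtered. The procedure was tested on simulated data. Counting intervals (95%) cover counting error only. Each peak was assigned to the closest of 45755 transcript starts of the curated RefSeq annotation (7 peaks had none). Alternatives were other normalizations (library totals, DESeq2 size factors, upper quartile, cyclic loess, centring by GC content), filters, an adjusted P of 0.01, no 24-h terms, limma-voom (3.58.1), DESeq2 (1.42.0) and each library left out. Centring by GC for the 12-h sine was added after seeing the data. Figures and summaries used Python 3.11.15, numpy 2.4.6, pandas 2.3.3 and scipy 1.17.1.

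Named peaks are the 10 per direction with the widest gap at a mean count of at least 100, and the 3 (markers: 2) with the smallest P value per gene list. Others were chosen after their values were seen. The comparison, gene lists and rules were chosen with earlier results of these data known. Some results are not reported here.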

Additional observations from a re-analysis of the deposited data

Results flagged for a closer look

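In 10 of the 12 peaks chosen for the smallest 24-h P value of their gene, ZT0 lay below ZT6 while ZT12 lay above ZT18, so that the change in the light phase and the change in the dark phase had opposite signs. A 24-h wave gives opposite signs by its shape, so this follows from the choice of the peaks, and over all peaks the signs were the same in 32.2%. The log2 ratio of ZT0 over ZT6 was -1.82 at Lpl (chr8:68852313-68853314), -1.16 at Nr1d1, -0.92 at Dbp and -0.54 at Dgat2, which encodes the last enzyme of triglyceride synthesis. It was -0.44 at Ucp1, -0.4 at Pnpla2, -0.39 at Angptl4, -0.35 at Tef, -0.33 at Fabp4 and -0.28 at Per3. The ratios of ZT12 over ZT18 in the same peaks ran from 0.21 at Angptl4 to 1.18 at Lpl. With 1 library per time point, the difference between the phases was not tested. At Per2 both ratios were positive (0.05 and 0.22), and at Adipoq, the adiponectin gene, both were negative (-0.12 and -0.04).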

How the results depend on the processing

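The count of called peaks remained 0 in the 8-library fit, the 4-library fit and the 12-h sine under each other normalization, filter, threshold and test that was run for them. With 1 library left out it ranged from 0 to 15 in the 8-library fit (15 without ZT6) and from 0 to 8 in the 4-library fit (8 without ZT0), where the lone library of a side is assumed to vary like the other side. Unadjusted P values under 0.05 numbered 680 to 3025 with 1 of the 8 libraries left out and 214 to 956 in the other settings, the lowest with the 24-h terms left out. In the 4-library fit they numbered 374 to 1655 and 46 to 132. Separated peaks numbered 4436 to 5490 above and 5272 to 5554 below. Of 88 named peaks, 0 changed direction in the 11 settings that kept all libraries, and 7 did when 1 library was left out, with log2 differences from -0.498 to 0.029 at Ehhadh, -0.052 to 0.454 at Lep, -0.043 to 0.325 at Mrc1, -0.392 to 0.018 at Col3a1, -0.023 to 0.274 at Mb, and at Cish -0.072 to 0.248 and -0.01 to 0.967. The cause was not tested. Of 38 shares of separated peaks by list, 19 moved by more than 1.5 times when start sites were limited to 10 kb, and the values for the metabolic and regulatory lists named above stand beside them.

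No paired analysis was possible because the labels give no replicate numbers and each time point has 1 library. To the 3 residual degrees of freedom edgeR added 9.69 prior ones, estimated over all peaks. With 2 pools per side, the 95% interval of a log2 difference had a median half-width of 0.405, or 0.272 at peaks with a mean count over 500. This is the precision of a single peak before adjustment, and even the named peaks with differences near 0.80 had an adjusted P of 1.0 by edgeR with all libraries.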

Other observations

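The 15 peaks called without ZT6 shared a profile in which ZT6 was high as well. ZT6 lay above ZT18 in 15 of 15 and above each of ZT3, ZT9, ZT15 and ZT21 in 14, and in 13 the libraries ZT0, ZT6 and ZT12 were the 3 highest of the 8. A peak upstream of Ghr, the growth hormone receptor gene, had 472 at ZT0 and 785 at ZT12, but 753 at ZT6 and 326 at ZT18, and 220 to 350 at the other times. With all 8 libraries, 2 of the 15 had an unadjusted P value under 0.05 by edgeR. More widely, the transition and mid-phase libraries all lay above the other 4 libraries in 756 peaks (1.14%) and all below them in 655 (0.991%).

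The 8 peaks called without ZT0 in the 4-library fit were high at ZT12 in 8 of 8 relative to ZT0, and ZT0 lay below both mid-phase libraries in 6. All of these were chosen after their values were seen. Of those in Fkbp5, the peaks at chr17:28411239-28412099 and chr17:28420040-28420983 (nearest start site Tulp1) had 741 and 937 at ZT12 compared with 165 and 180 at ZT0 and 176 to 267 at the mid-phases. A peak in an intron of Zbtb16, another gene that glucocorticoids induce, had 2058 at ZT12 compared with 442 at ZT0. The peaks nearest to Rhbdd2, Ugt2a1 and Cyp2b10 had a like profile. They had 910, 975 and 796 at ZT12 compared with 209, 191 and 154 at ZT0. A link of these peaks to glucocorticoids was not tested. Short sites near 4930517M08Rik (chr17:4626162-4626603) and at Gm24105 (chr5:149247937-149248245) had 744 and 314 at ZT12 and as many as 4928 and 1139 at ZT21, but at most 113 and 57.2 in the other libraries. They are 2 of the 3 peaks with a fitted log2 difference beyond 1 in the 8 libraries (2.41, SE 1.38, and 2.05, SE 1.06). Their unadjusted P values by edgeR were 0.104 and 0.0761. The third was a weak site in intron 2 of Gabrg3 (chr7:57356495-57356898), with 39.0 and 14.4 at the transitions compared with 59.2 and 46.8, a log2 difference of -1.07.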
